A study of Mus musculus with 15 samples.

Results

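The 9 genes described here, Dlx1, Dlx2, Dlx5, Dlx6, Emx1, Emx2, Lhx2, Otx1 and Nkx2-1, encode homeodomain transcription factors that pattern the embryonic forebrain. They were taken by gene symbol from the 46679 genes of an RNA-seq series of mouse brain tumors, and all 9 were found. The set was chosen partly from measured values of these same libraries, because Dlx6os1, a transcript antisense to Dlx6, was nearly absent from CT2A tumors. Levels in CT2A are therefore given as a description with no test. RNA was measured in 5 groups of 3 C57BL/6 mice each, namely naïve brain and end-stage brain tumors of the CT2A, GL261, 005 and Mut3 lines.

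Tumor cells were implanted at 6 to 8 weeks of age, and the mice were perfused with PBS before tissue was taken. Mut3 tumors grew from 500000 implanted cells and those of the other lines from 100000, and each line carried a reporter of GFP and firefly luciferase. CT2A (p53 wild-type) and GL261 (mutant K-ras and p53) are methylcholanthrene-induced lines kept in serum. The 005 line has activated H-ras and AKT on a p53+/- background, Mut3 has lost NF1 and p53, and both are kept in neurobasal medium with EGF and FGF-2. Each group is thus 1 line, so line cannot be told apart from culture medium or cell number where these also differ. The tumors also hold host brain and infiltrating cells. The region of the naïve brain that was sampled is not given in the sources used here.

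The Dlx genes are expressed in the ganglionic eminences, the ventral part of the embryonic telencephalon, where they drive the formation and migration of GABA interneurons. They sit as neighbouring pairs, Dlx1 with Dlx2 and Dlx5 with Dlx6, and Dlx1 and Dlx2 act upstream of Dlx5 and Dlx6. Emx1 and Emx2 specify the dorsal telencephalon, from which the excitatory neurons of the cortex and hippocampus arise, Lhx2 confers cortical identity on the neural epithelium, Otx1 acts in the anterior neural plate and later in deep-layer cortical neurons, and Nkx2-1 specifies the medial ganglionic eminence as well as the thyroid and lung. In the adult brain several of these genes stay on in interneurons, in cortical neurons or in stem cells of the ventricular wall.

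On GRCm38, Dlx1 lies at chr2:71528113-71533981 on the plus strand and Dlx2 at chr2:71543408-71546754 on the minus strand, with a gap of 9426 bases between them. Dlx6 (chr6:6863334-6868568, plus strand) and Dlx5 (chr6:6877805-6882085, minus strand) are 9236 bases apart. Dlx6os1 (chr6:6820189-6871592, minus strand) covers all 5235 bases of Dlx6, but 0 of its exonic bases overlap a Dlx6 exon. The exons of Dlx1 share 335 bases (6.21%) with those of the antisense gene Dlx1as, and the exons of Emx2 share 264 bases (8.79%) with those of Emx2os. Whether the libraries keep strand is not given in the sources used here, so reads in those shared bases cannot be assigned to 1 gene. Emx1 is at chr6:85187438-85204462, Emx2 at chr19:59458372-59465357, Lhx2 at chr2:38339281-38369733, Otx1 at chr11:21994764-22002897 and Nkx2-1 at chr12:56531958-56536908.

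RefSeq promoters of GRCm38.p6, 250 bases before to 50 bases after a start, were given for 6 of the 9 members. They are shown for Dlx6os1, whose level led to the choice of the set, for Emx2, whose CPM in CT2A overlapped that of naïve brain, and for Dlx2 and Lhx2, which were far lower in Mut3 than in 005. Capitals mark TAATTA, a core that many homeodomain proteins bind, searched on both strands (its reverse complement is the same). It was present in 5.29% of the 32851 promoters of this length. The windows are chr6:6869484-6869783 (minus strand), chr19:59458440-59458739 (plus), chr2:71546705-71547004 (minus) and chr2:38339031-38339330 (plus).
Dlx6os1: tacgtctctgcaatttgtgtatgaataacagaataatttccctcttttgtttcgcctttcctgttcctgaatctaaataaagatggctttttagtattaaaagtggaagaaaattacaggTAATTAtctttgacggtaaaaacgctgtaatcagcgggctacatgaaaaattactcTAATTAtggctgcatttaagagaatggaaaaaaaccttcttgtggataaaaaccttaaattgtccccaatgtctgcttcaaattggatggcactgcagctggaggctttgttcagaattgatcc
Emx2: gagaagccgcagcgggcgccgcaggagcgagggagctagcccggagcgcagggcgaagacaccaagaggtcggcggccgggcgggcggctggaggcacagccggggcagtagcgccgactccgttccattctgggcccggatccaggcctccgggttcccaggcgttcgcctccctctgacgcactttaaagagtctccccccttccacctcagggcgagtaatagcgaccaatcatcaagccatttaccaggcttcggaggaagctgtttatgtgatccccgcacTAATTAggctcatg
Dlx2: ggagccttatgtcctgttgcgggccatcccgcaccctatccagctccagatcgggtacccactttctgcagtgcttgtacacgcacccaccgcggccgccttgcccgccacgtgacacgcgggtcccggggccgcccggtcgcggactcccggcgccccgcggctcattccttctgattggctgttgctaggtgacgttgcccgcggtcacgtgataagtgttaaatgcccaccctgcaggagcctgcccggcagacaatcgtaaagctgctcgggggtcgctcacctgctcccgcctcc
Lhx2: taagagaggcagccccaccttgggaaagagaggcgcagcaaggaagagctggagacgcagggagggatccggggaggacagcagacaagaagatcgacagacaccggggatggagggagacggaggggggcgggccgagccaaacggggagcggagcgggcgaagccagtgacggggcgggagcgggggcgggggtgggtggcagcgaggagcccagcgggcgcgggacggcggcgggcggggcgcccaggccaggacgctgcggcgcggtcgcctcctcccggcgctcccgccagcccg
The Dlx6os1 window holds 2 matches and the Emx2 window 1, close to its start. The Dlx2 and Lhx2 windows hold 0. They also differ in CpG content: the Lhx2 window has 34 CpG dinucleotides, the Dlx2 window 29 and the Emx2 window 26, against 5 in the Dlx6os1 window and a median of 7 over all promoters. A second window of Dlx6os1 (chr6:6861634-6861933) has 1 match and 3 CpG dinucleotides, and one of Lhx2 (chr2:38351058-38351357) has 0 matches and 29, and neither is shown. These matches describe the letters of the windows and are not evidence of binding.

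Total counts per library ranged from 3105119 to 13130158 and were lowest in naïve brain (3105119 to 5161132). Levels are given as CPM (estimated counts scaled to library size, with TMM factors) and always in the order of replicates 1, 2 and 3. A level of 3 counts, taken here as the floor, corresponded to 0.213 to 0.809 CPM, a limit that covers counting error only. Of the members, 8 passed the filter on low counts and Nkx2-1 did not, and 17481 of all genes passed it. Differences were tested with edgeR's quasi-likelihood test over all 15 libraries, and calls of differential expression (DE) needed both an adjusted p (Benjamini-Hochberg) under 0.05 and a log2 fold change of 1 or more in either direction. Naïve brain was the control in each tumor comparison, so these comparisons share their control libraries. On the TPM scale the tumors lay lower relative to naïve brain, since the log2 ratio of tumor to naïve brain of the median tested gene shifted from the CPM scale by -0.57 for 005, -0.82 for GL261, -0.85 for Mut3 and -0.997 for CT2A. Because neuronal RNA differed between libraries, the summed CPM of 9 pan-neuronal markers is given beside the results. It was 4344 to 6793 in naïve brain, 283 to 1193 in CT2A, 1102 to 2025 in GL261 and 140 to 239 in Mut3. In 005 it was 689 and 278 in replicates 1 and 2 but 3888 in replicate 3, which also had 17.8% mitochondrial counts, a value within the range of naïve brain (14.97% to 23.97%). The 005 results are therefore also given without replicate 3, an alternative chosen with these values known.

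In naïve brain the members differed in level by more than an order of magnitude. Per length of transcript, in TPM, Lhx2 (4.97 ± 2.32, SD, n = 3), Emx1 (4.87 ± 3.25) and Dlx1 (3.77 ± 1.78) were highest, with ranges that overlapped. Dlx6 (1.72 ± 1.07), Dlx5 (1.46 ± 1.47), Dlx2 (0.872 ± 0.872) and Emx2 (0.834 ± 0.335) followed. Otx1 (0.329 ± 0.469) and Nkx2-1 (0.219 ± 0.129) were lowest. In CPM, which compares libraries and not genes, naïve replicate 2 was the highest of the 3 for Dlx1, Dlx2, Dlx5, Emx1, Lhx2 and Otx1, and replicate 1 for Dlx6.

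Dlx1, Dlx2, Dlx5, Dlx6, Emx1, Emx2 and Lhx2 all fell in Mut3 tumors compared to naïve brain, 7 of the 8 tested members, against 19.8% of all tested genes called lower in Mut3 and 17.9% called higher. In each of the 7, every Mut3 library lay below every naïve library, as for 26.0% of all tested genes. Dlx2, Dlx5, Emx1 and Emx2 were at or below 3 counts in every Mut3 library. The median log2 fold change of the 8 members was -4.57, against 0.11 over all tested genes. In bulk tissue such as this, fewer cells that express a gene and less RNA per cell cannot be told apart. The 9 pan-neuronal markers also fell in Mut3 (9 of 9 called, median log2 fold change -5.65), as did 12 of 12 markers of GABA interneurons (median -5.26) and 8 of 9 of excitatory neurons (median -5.39). Their part in the fall of the members was not tested.

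**Figure D1:**
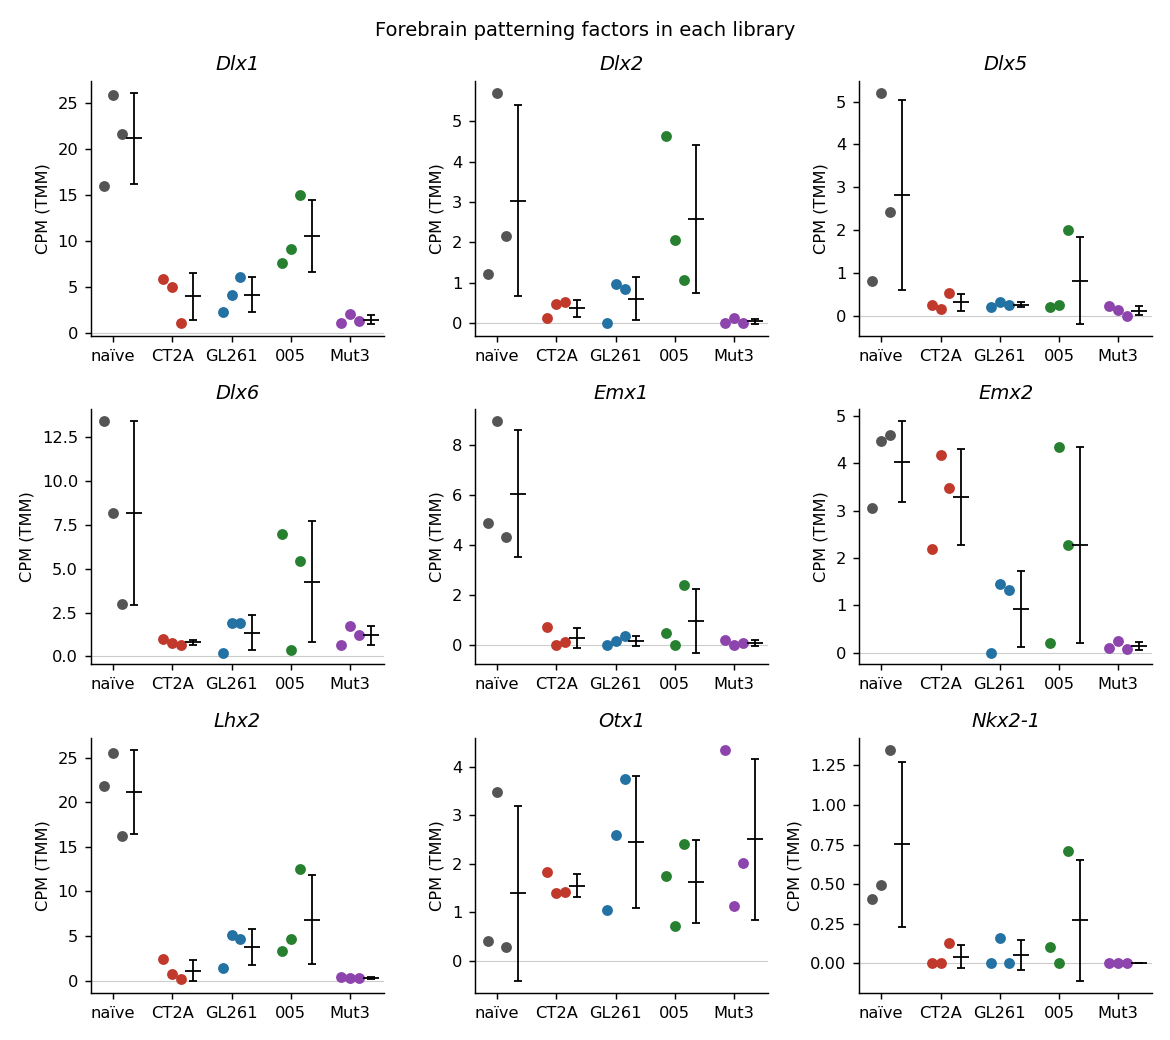
Level of each member (CPM after TMM scaling, linear axes) in the 3 libraries of each group, one point per mouse, with the group mean and SD as a bar to the right. Mut3 libraries lie below every naïve library for all members but Otx1, and the CT2A points of Emx2 overlap those of naïve brain.

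Lhx2, the selector of cortical identity, was among the members with the steepest fitted fall in Mut3. Its level was 21.8, 25.6 and 16.2 CPM in naïve brain, 2.44, 0.775 and 0.129 in CT2A and 1.45, 5.16 and 4.72 in GL261. It was 3.29, 4.70 and 12.5 CPM in 005, and 0.446, 0.251 and 0.263 in Mut3. The Mut3 libraries lay below all GL261 and 005 libraries, and no tumor library reached the lowest naïve one. The log2 fold change in Mut3 compared to naïve brain was -5.98 (SE 0.88, adjusted p = 4.0e-04), which is a 66.2-fold difference of the means. The changes of Dlx2 (-5.84, SE 1.28, 72.5-fold by the means) and Emx1 (-5.64, SE 1.38) were close to it, so their order is not resolved. Lhx2 also fell in GL261, with a log2 fold change of -2.47 (SE 0.71, adjusted p = 0.0246).

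Dlx1, an interneuron factor, was above 3 counts in every library. Its level was 15.9, 25.8 and 21.6 CPM in naïve brain, 5.85, 4.96 and 1.03 in CT2A and 2.27, 4.03 and 6.05 in GL261. It was 7.60, 9.03 and 14.98 CPM in 005, and 1.00, 2.01 and 1.23 in Mut3. The groups thus fell in the order naïve brain, 005, then GL261 and CT2A with overlapping values, then Mut3, whose values overlapped those of CT2A but not those of GL261. Dlx1 fell in Mut3 (log2 fold change -3.89, SE 0.61, adjusted p = 5.3e-04) and in GL261 (-2.34, SE 0.56, adjusted p = 0.0105).

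Dlx2, its neighbour on chromosome 2, was lower throughout. Its level was 1.22, 5.71 and 2.16 CPM in naïve brain, 0.122, 0.465 and 0.516 in CT2A and 0, 0.968 and 0.847 in GL261. It was 4.62, 2.05 and 1.07 CPM in 005, and 0, 0.125 and 0 in Mut3, where the 3 libraries held 1 count in all. The 005 and naïve libraries overlapped, and Mut3 lay below both. Against the 37 counts of naïve brain, the ratio of naïve brain to Mut3 was 82.9 (95% exact interval of counting error 14.0 to 3362, adjusted p = 0.00285 in edgeR).

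The second Dlx pair, Dlx5 and Dlx6, had a wide spread in naïve brain. Dlx5 was 0.814, 5.21 and 2.43 CPM in naïve brain, 0.244, 0.155 and 0.516 in CT2A and 0.207, 0.323 and 0.242 in GL261. It was 0.205, 0.241 and 1.99 CPM in 005, and 0.223, 0.125 and 0 in Mut3. All CT2A, GL261 and Mut3 libraries were below the lowest naïve one, and in 005 only replicate 3 was above it. With 3 counts in Mut3 and 34 in naïve brain, the ratio of naïve brain to Mut3 was 25.4 (95% exact interval 7.99 to 129, adjusted p = 0.00731 in edgeR). In GL261 the log2 fold change of Dlx5 was -3.36 (SE 1.09, adjusted p = 0.0396). This call was lost in edgeR with a replicate block (adjusted p = 0.0609), without the CT2A samples (adjusted p = 0.0581) and without any 1 of the GL261 libraries. It was also lost without naïve replicate 2 (adjusted p = 0.168) and without naïve replicate 3 (adjusted p = 0.0689).

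Dlx6 was 13.4, 8.19 and 2.97 CPM in naïve brain, 0.975, 0.775 and 0.645 in CT2A and 0.207, 1.94 and 1.93 in GL261. It was 6.99, 0.361 and 5.47 CPM in 005, and 0.670, 1.76 and 1.23 in Mut3. It was the only member other than Dlx1 and Otx1 that was above 3 counts in every Mut3 library, and its Mut3 values overlapped those of GL261. Dlx6 fell in Mut3 (log2 fold change -2.75, SE 0.90, adjusted p = 0.025), whereas its change of -2.55 (SE 0.90) in GL261 missed the threshold (adjusted p = 0.0525). It passed in GL261 with DESeq2 (adjusted p = 0.0173), with limma on log2(TPM + 1) (adjusted p = 0.00707), with no filter on low counts (adjusted p = 0.0373) and in a fit of only these 2 groups (adjusted p = 0.0307). In edgeR it also passed without naïve replicate 3 (adjusted p = 0.0472) or 005 replicate 3 (0.0372). It missed with library size scaling (adjusted p = 0.0607), with the replicate block (0.0947) and without CT2A (0.0857). It also missed without naïve replicate 1 or 2, or any 1 of the GL261 libraries (adjusted p from 0.0833 to 0.193).

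Emx1, which marks the dorsal telencephalon and its excitatory neurons, was lower in every tumor library than in any naïve one. It was 4.89, 8.93 and 4.32 CPM in naïve brain, 0.731, 0 and 0.129 in CT2A and 0, 0.161 and 0.363 in GL261. It was 0.514, 0 and 2.41 CPM in 005, and 0.223, 0 and 0.0877 in Mut3. Among the tumors, 005 replicate 3 was the highest. The ratio of naïve brain (76 counts) to Mut3 (3 counts) was 56.8 (95% exact interval 18.7 to 281, adjusted p = 0.0054 in edgeR). In GL261 the log2 fold change was -4.84 (SE 1.34, adjusted p = 0.02).

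Emx2, the other Emx gene, was 3.05, 4.47 and 4.59 CPM in naïve brain, 2.19, 4.18 and 3.48 in CT2A and 0, 1.45 and 1.33 in GL261. It was 0.205, 4.33 and 2.27 CPM in 005, and 0.112, 0.251 and 0.0877 in Mut3. In CPM, CT2A overlapped naïve brain and lay above every GL261 and every Mut3 library, while the 005 libraries ran from near the Mut3 level to the naïve level. In TPM, by contrast, every library of each tumor was below every naïve library, and the naïve mean was 2.53-fold that of CT2A and 2.63-fold that of 005. Emx2 fell in Mut3 (log2 fold change -4.65, SE 1.10, adjusted p = 0.00455), and the change of -2.05 (SE 0.94) in GL261 missed the threshold (adjusted p = 0.116).

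Otx1 stood apart from the other members. It was 0.407, 3.47 and 0.270 CPM in naïve brain, 1.83, 1.39 and 1.42 in CT2A and 1.03, 2.58 and 3.75 in GL261. It was 1.75, 0.722 and 2.41 CPM in 005, and 4.35, 1.13 and 2.02 in Mut3. All tumor libraries lay above naïve replicates 1 and 3, and all groups overlapped through naïve replicate 2. The log2 fold changes were 0.85 in GL261 (SE 0.86, adjusted p = 0.476), 0.26 in 005 (SE 0.85, adjusted p = 0.857) and 0.86 in Mut3 (SE 0.85, adjusted p = 0.443). Without naïve replicate 2 they were 2.94 in GL261 (adjusted p = 0.048), 2.30 in 005 (adjusted p = 0.123) and 2.97 in Mut3 (adjusted p = 0.0254), so this 1 library decided whether Otx1 was called in GL261 and Mut3. In TPM the direction was the opposite with all libraries, with a naïve mean 1.14-fold that of GL261, 1.46-fold that of 005 and 1.23-fold that of Mut3.

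Nkx2-1, the factor of the medial ganglionic eminence, was at the limit of detection and was not tested in the fit reported here. With no filter on low counts its log2 fold change in Mut3 was -5.52 (SE 1.85, adjusted p = 0.0326), and it was not called in GL261 (adjusted p = 0.205) or 005 (adjusted p = 0.686). It was 0.407, 0.496 and 1.35 CPM in naïve brain and 0.103, 0 and 0.710 in 005. Single libraries of CT2A (0.129) and GL261 (0.161) held 1 count each, and Mut3 held 0 counts. With 9 counts in naïve brain, and 3 counts over the group taken as the floor in Mut3, the ratio was 6.72. This value leaves out the counting error of the 9 counts and is not a lower limit. The ratio of naïve brain to GL261 was 13.7 (95% exact interval 1.90 to 602). Over 5 thyroid and lung marker genes the summed level was 1.74 to 6.11 CPM in naïve brain and at most 2.05 in the tumors.

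In GL261, 4 of the 8 tested members fell compared to naïve brain (Dlx1, Dlx5, Emx1 and Lhx2) and 0 rose, against 7.77% of all tested genes called lower and 14.6% called higher in GL261. In 7 of 8, all but Otx1, every GL261 library was below every naïve library, as for 24.1% of all tested genes, and 7 of 8 had an unadjusted p under 0.05. The share of all tested genes under that unadjusted p was not counted in any comparison. Such counts of members therefore cannot be called unusual. The median log2 fold change of the members was -2.40. The pan-neuronal markers had a median log2 fold change of -2.06 with 1 of 9 called, and the GABA interneuron markers one of -2.05 with 1 of 12 called. The GL261 calls rest on few libraries. Without GL261 replicate 1 there were 0 calls (edgeR, 4 members with an unadjusted p under 0.05), while the share of all genes called lower dropped to 0.772%. Dlx1 and Lhx2 were called without GL261 replicate 2, Dlx1 and Emx1 without GL261 replicate 3, and Dlx1, with Otx1 as a rise, without naïve replicate 2. In these fits 4.74%, 3.08% and 2.79% of all genes were called lower, and 11.7% were called higher in the last. Without naïve replicate 1, Dlx1, Dlx5 and Emx1 were called (2.90% of all genes lower). Without naïve replicate 3, the calls were Dlx1, Dlx6, Emx1 and Lhx2 (4.79% lower).

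**Figure D2:**
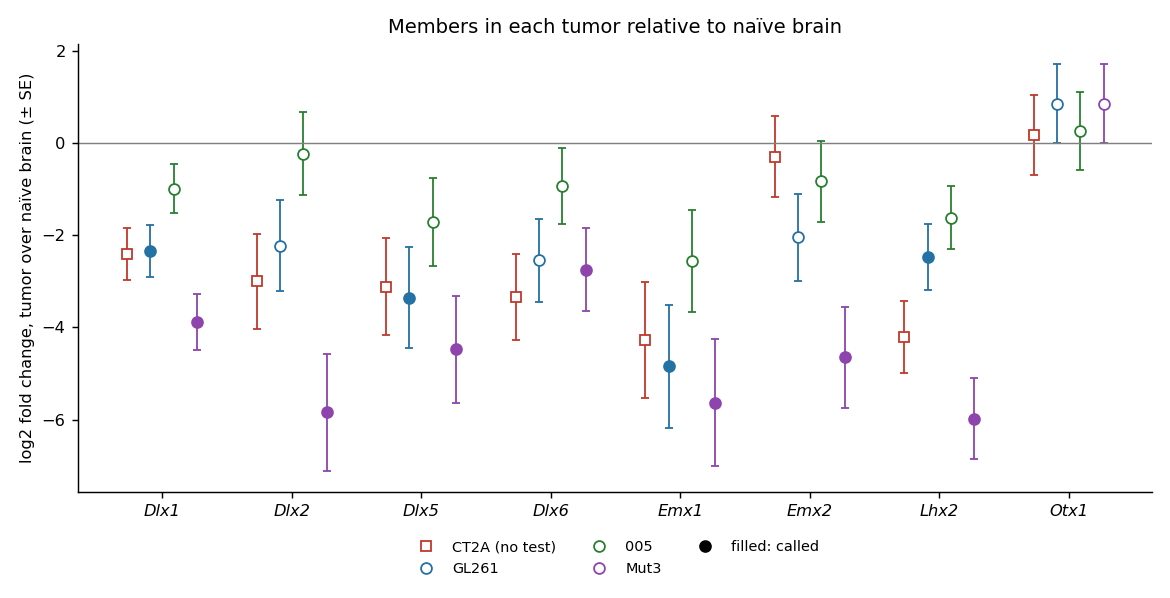
Log2 fold change of each tested member in each tumor over naïve brain (points, with SE as bars), with filled points for members called DE and squares for CT2A, which was not tested. All Mut3 points but Otx1 are filled and lie between -2.75 and -5.98, and the 005 points lie nearest to 0 among the tumors for Dlx1, Dlx2, Dlx5, Dlx6, Emx1 and Lhx2.

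In 005, 0 of the 8 members were called compared to naïve brain by edgeR (2 with an unadjusted p under 0.05, Emx1 and Lhx2), and DESeq2 also called 0. Of all tested genes, 1.05% were called lower and 11.6% higher. Every 005 library was below every naïve library for 3 members (Dlx1, Emx1 and Lhx2), as for 10.8% of all tested genes. The median log2 fold change was -0.97. Without 005 replicate 3, the library with the most neuronal RNA among the tumors, 18.1% of the tested genes were called lower and 3 members were called: Dlx5 (log2 fold change -3.63, SE 1.12, adjusted p = 0.0198), Emx1 (-4.49, SE 1.31, adjusted p = 0.0155) and Lhx2 (-2.48, SE 0.73, adjusted p = 0.0159). Dlx1 then had a log2 fold change of -1.41 (SE 0.59, adjusted p = 0.0733) and Dlx2 one of 0.07 (SE 0.96, adjusted p = 0.964).

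The 005 libraries differed among themselves in which factors they held. In replicate 1, Dlx2 (4.62 CPM) and Dlx6 (6.99 CPM) were at levels within the range of naïve brain and Emx2 (0.205 CPM) was below 3 counts. In replicate 2, Emx2 (4.33 CPM) and Dlx2 (2.05 CPM) were within the naïve range and Dlx6 (0.361 CPM) was at 3 counts. These levels are in CPM. Both libraries had less pan-neuronal RNA than any GL261 library. With 1 library of each kind, this difference has no replicate check.

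The tumors were also compared directly. Between 005 and Mut3, 4 of the 8 members were higher in 005, against 14.0% of all tested genes called higher and 5.76% called lower in 005. They were Dlx1 (log2 fold change 2.90, SE 0.59, adjusted p = 0.00509), Dlx2, Emx2 (3.82, SE 1.08, adjusted p = 0.0232) and Lhx2 (4.36, SE 0.84, adjusted p = 0.00396). For Dlx2 the ratio of 005 (77 counts) to Mut3 (1 count) was 67.9 (95% exact interval 11.8 to 2718, adjusted p = 0.00845 in edgeR). The 005 and Mut3 libraries did not overlap for Dlx1, Dlx2 and Lhx2, and overlapped for Emx2 through 005 replicate 1. The share of all tested genes without overlap was not counted between tumors, so this separation cannot be called unusual. Without 005 replicate 3, the same 4 members were called, against 9.63% of all genes then called higher in 005, with log2 fold changes of 2.50 for Dlx1, 5.92 for Dlx2, 3.76 for Emx2 and 3.52 for Lhx2. Without any 1 of the Mut3 libraries, Emx2 was not called, and without 005 replicate 2 Emx2 was lost while Dlx6 and Emx1 were gained. Limma on log2(TPM + 1) called 0 members between 005 and Mut3 and 0 between GL261 and Mut3.

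Between GL261 and Mut3, 1 of 8 members, Lhx2, was higher in GL261 (log2 fold change 3.51, SE 0.84, adjusted p = 0.0127), against 11.1% of all tested genes called higher and 6.10% called lower in GL261. Dlx1 also had every GL261 library above every Mut3 library, for which no share over all tested genes was counted. Its change of 1.56 missed the threshold (SE 0.58, adjusted p = 0.0747). Without GL261 replicate 1, in which Dlx2 and Emx2 were at 0, Dlx1, Dlx2, Emx2 and Lhx2 were called, against 9.31% of all genes then called higher in GL261. Between GL261 and 005, 0 of 8 members were called by edgeR and by DESeq2 (1 with an unadjusted p under 0.05 in edgeR, Dlx1, at -1.34 with SE 0.55), against 0.887% of all tested genes called lower and 1.73% called higher in GL261. A p that misses the threshold does not show that the lines are alike.

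In CT2A, the line whose values helped to choose the set, Emx2 and Otx1 overlapped naïve brain in CPM and the other members did not. Every CT2A library was below every naïve library for Dlx1, Dlx2, Dlx5, Dlx6, Emx1 and Lhx2, 6 of the 8 members past the filter beside 28.5% of all tested genes, and for Nkx2-1. The fitted log2 differences, given without a test, were -2.41 for Dlx1, -3.001 for Dlx2, -3.12 for Dlx5, -3.34 for Dlx6, -4.27 for Emx1 and -4.21 for Lhx2. For Emx2 the difference was -0.30 and for Otx1 0.17, whereas in TPM every CT2A library was below every naïve one for Emx2 and the naïve mean of Otx1 was 2.15-fold that of CT2A. The neuronal lists had medians of -3.12 (pan-neuronal), -3.06 (GABA interneuron) and -3.04 (excitatory neuron), and Emx2 and Otx1 were the members farthest from these medians.

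Dlx6os1, also called Evf2, is a long noncoding RNA of the ventral forebrain that modulates Dlx5 and Dlx6. Its main entry was 16.3, 7.20 and 32.6 CPM in naïve brain, 0.122, 0.155 and 0.129 in CT2A and 1.03, 1.61 and 1.69 in GL261. It was 1.44, 0.482 and 6.53 CPM in 005, and 0.112, 0.125 and 0.526 in Mut3. CT2A held 1 count in each library, 3 against 230 in naïve brain, a ratio of 136. This is the value on which the set was picked. The fitted log2 differences of Dlx6os1 from naïve brain were -3.66 in GL261 (SE 0.84), -2.69 in 005 (SE 0.78) and -6.03 in Mut3 (SE 0.96). They are given without a test, since the same naïve values entered the choice of the set. The Mut3 levels overlapped those of CT2A, so the low level was not particular to CT2A. A second entry of the same name, a fragment of 146 bases, had at most 4 counts in any library and is not described.

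The other antisense genes and paralogs had values of their own. Emx2os, antisense to Emx2, fell in Mut3 (log2 fold change -3.62, SE 0.81, adjusted p = 0.00316) but not in GL261 (-0.21, SE 0.69, adjusted p = 0.84) or 005 (-0.23, SE 0.68, adjusted p = 0.834), and it was higher in GL261 (3.41) and in 005 (3.39) than in Mut3. In CT2A it was 1.46, 0.930 and 0.774 CPM, below the 3.26, 3.23 and 1.89 CPM of naïve brain, although Emx2 itself overlapped there. Dlx1as was 2.85, 0.496 and 1.89 CPM in naïve brain and its changes were not called (log2 fold change -2.20 in Mut3, adjusted p = 0.115). Lhx9, a relative of Lhx2, fell in Mut3 (-3.52, SE 1.23, adjusted p = 0.0334). Its level was 13.4, 0 and 4.32 CPM in naïve brain and 0.558, 0.627 and 0.351 in Mut3. Naïve replicate 2 thus lay below every Mut3 library. Otx2, the paralog of Otx1 and a gene of the choroid plexus, was 0, 3.47 and 1.35 CPM in naïve brain and 0.411, 2.41 and 10.3 in 005. It was higher in 005 than in Mut3 (log2 fold change 4.34, SE 1.26, adjusted p = 0.026), and 005 replicate 3, where Otx2 was highest, also had the highest sum of 7 choroid plexus and ependymal markers (13629 CPM, against 446 to 3980 in the other 14 libraries). Dlx3, Dlx4 and Otx2os1 were not past the filter.

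Other patterning factors were read from 4 lists of 64 genes in all, of which 41 were tested. In Mut3, 19 of the 41 were called lower and 8 higher than in naïve brain, beside 19.8% and 17.9% of all tested genes. In GL261, 9 were lower and 6 higher, beside 7.77% and 14.6%, and in 005, 0 were lower and 3 higher, beside 1.05% and 11.6%. The dorsal list, with the neurogenic and cortical layer factors, had 10 of 13 lower in Mut3, 4 of 13 in GL261 and 0 of 13 in 005, and 0 of 13 higher in each. Bcl11b (log2 fold change -2.40 in GL261 and -6.55 in Mut3), a factor of deep-layer and striatal neurons, was among them, as were Neurod6 (-3.16 and -6.04) and Fezf2 (-2.09 and -2.81). All 3 of these are also expressed in mature cortical neurons.

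The ventral list was mixed, with 6 of 16 lower and 4 higher in Mut3, and 4 lower and 5 higher in GL261. Lhx6, an interneuron factor, fell in GL261 (-1.67, SE 0.52) and Mut3 (-3.96, SE 0.59), as did Nr2f1 (-1.59 and -1.13). Maf, Sp8 and Nkx6-2 also fell in Mut3. Genes that rose in both lines also have known roles outside interneurons: Olig2 (1.39 in GL261, 3.96 in Mut3), Nkx2-2 (2.17 and 3.64) and Sox6 (2.37 and 3.21) act in oligodendrocyte precursors, and Zeb2 (1.43 and 1.23) in several lineages. Nkx2-2 also rose in 005 (1.77). In Mut3 4 of 7 markers of glial progenitors were also higher, with a summed level of 429 to 913 CPM against 133 to 224 in naïve brain.

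**Figure D3:**
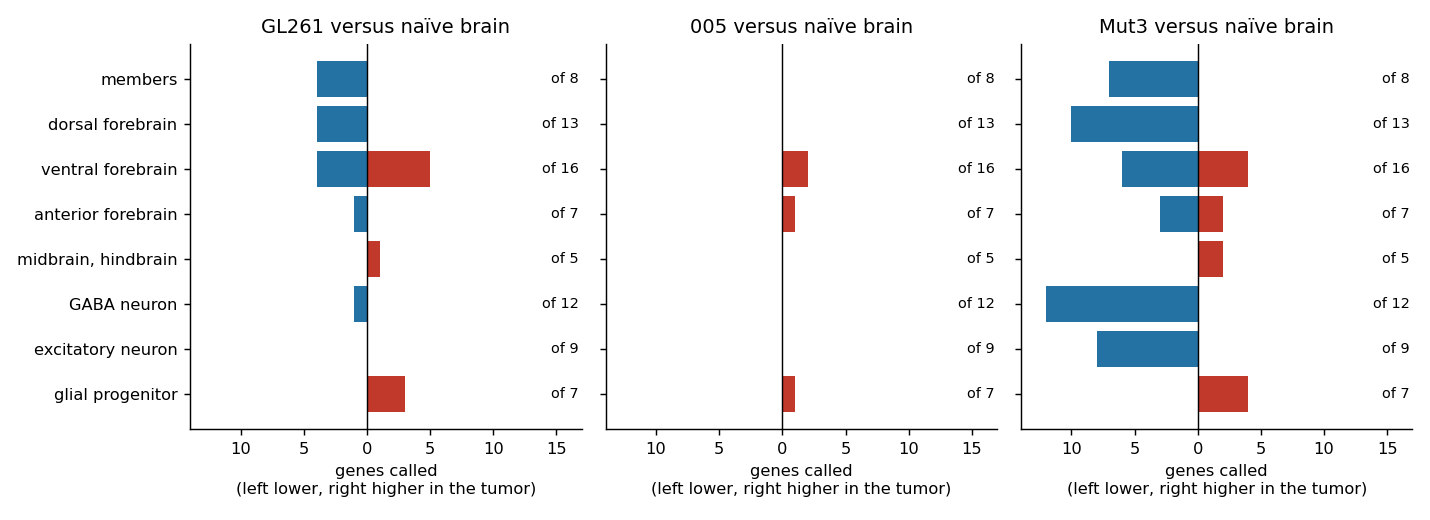
Number of genes called lower (left of 0) and higher (right of 0) than in naïve brain in GL261, 005 and Mut3, for the members, the 4 lists of patterning factors, neuron markers and glial progenitor markers, with the number tested beside each bar. In Mut3 the members, the dorsal factors and the neuron markers have calls in the lower direction with 0 in the higher one, and the ventral factors have both.

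The anterior list had 3 of 7 lower and 2 higher in Mut3, 1 lower and 0 higher in GL261, and 0 lower and 1 higher in 005. Of these factors, Vax2, a factor of the ventral forebrain and eye, rose in 005 (mean 2.44 CPM, adjusted p = 0.0362) and in Mut3 (3.57 CPM, adjusted p = 0.00726) from 0.0899 CPM in naïve brain. Of the midbrain and hindbrain factors, 5 of 16 were tested. Hoxa2, a hindbrain gene, rose in Mut3 (4.596 against 0.0827 CPM in naïve brain, adjusted p = 0.00314), as did En2 (3.75 against 0.549 CPM, adjusted p = 0.0309). Pax5 rose in GL261 (2.96 against 0.136 CPM, adjusted p = 0.0239). The tumors also hold infiltrating immune cells, and which cells held the Pax5 RNA was not tested. For Vax2, Hoxa2 and Pax5 naïve brain held 1 to 2 counts in all, so no fold is given.

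Set beside the neuronal RNA of the same library, the members did not all follow it. Per 1000 CPM of the summed GABA interneuron markers, Dlx1 was 14.1 to 25.0 CPM in naïve brain, 8.47 to 23.9 in GL261, 34.4 to 36.3 in Mut3, 16.7 to 153 in 005 and 15.5 to 69.3 in CT2A. All Mut3 libraries were below all naïve libraries in Dlx1 level but above them on this ratio. Per 1000 CPM of the pan-neuronal markers, however, Dlx1 was 2.60 to 5.94 CPM in naïve brain and 5.15 to 8.96 in Mut3, which overlapped. Lhx2, per 1000 CPM of the GABA interneuron markers as for the values below, was 13.7 to 24.8 in naïve brain, 13.9 to 79.6 in 005 and 4.38 to 16.1 in Mut3. Emx2 was 2.71 to 4.33 in naïve brain and 2.46 to 4.38 in Mut3, against 6.40 to 58.4 in CT2A and 1.13 to 73.5 in 005. Otx1 was 0.228 to 3.37 in naïve brain and 19.7 to 157 in Mut3. These ratios of low counts are given with no test.

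**Figure D4:**
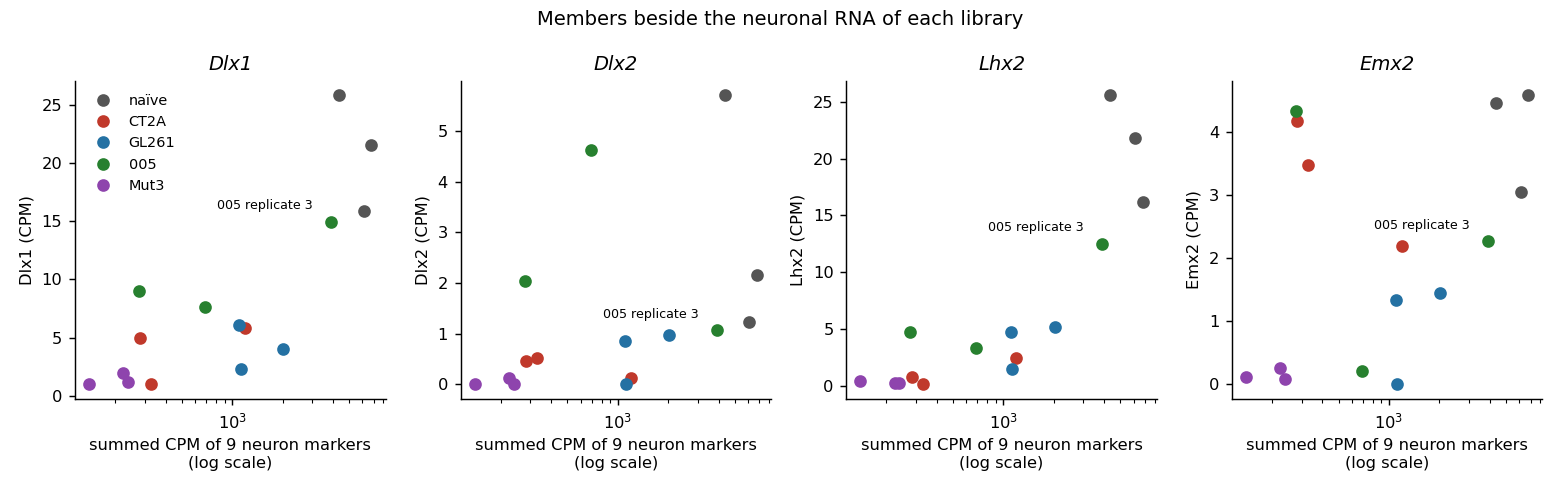
Level of Dlx1, Dlx2, Lhx2 and Emx2 (CPM, linear axis) against the summed CPM of 9 pan-neuronal markers (log axis) in each of the 15 libraries, coloured by group. The 005 replicate 3 library lies toward the naïve libraries on the neuronal axis at 3888 CPM, while CT2A and 005 libraries with under 350 CPM of neuronal markers reach 4.18 and 4.33 CPM of Emx2.

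Across the 15 libraries, which include the group differences described above, the log2 levels of the members were correlated to different degrees. Dlx1 and Lhx2 had a Pearson's r of 0.94, Dlx5 and Emx1 one of 0.88, and the neighbours Dlx1 and Dlx2 one of 0.79 and Dlx5 and Dlx6 one of 0.59. Emx2 and Dlx6 were the least alike of the members without Otx1 (0.25). Otx1 had negative values with every other member, from -0.33 with Nkx2-1 to -0.04 with Dlx6. Of 16137 genes with a mean log2 CPM of at least 0, those most like Lhx2 were Ptges2 (0.98) and Arf3 (0.98), and those most like Dlx1 were Lpgat1 and Cdk17 (both 0.97). The closest to Dlx2 were Socs5 and Slc48a1 (both 0.91), to Dlx5 Tbc1d10b (0.95) and Mlf2 (0.94), and to Dlx6 Ccbe1 (0.91) and Mtx3 (0.88). The closest to Emx1 that is named here was Smim13 (0.96), to Emx2 Rgl1 (0.92) and Asah2 (0.91), and to Otx1 Fancc (0.80) and Prob1 (0.78).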

How the data were processed

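RNA from 15 samples, 3 mice in each of 5 groups by the sample labels, was sequenced. The authors aligned reads with STAR 2.4.2a to the GENCODE mouse genome and marked duplicates with Picard. The submitters' processing notes also name Salmon, DESeq2 1.18.1 and mm10, with no role given. The authors deposited estimated counts, also called expected counts, without normalization between samples and TPM values scaled for gene length. For 4644 genes above 50 counts the ratio of count to TPM was a gene factor times a sample factor (largest log2 residual 9.608e-10), so the tables are not independent. Of 46679 identifiers, 46201 matched a GENCODE M21 symbol.

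Counts, rounded to whole numbers, went into edgeR 4.0.16 under R 4.3.3 (filterByExpr, TMM, quasi-likelihood, 6 comparisons in 1 fit, no covariate). TMM-scaled CPM and log2 CPM (prior count 2) gave levels and correlations. Steps were tested on simulated data. The members and the lists of 178 other genes were chosen with earlier results of these data known. The genes named are the 9 members, antisense genes and paralogs, listed factors called in the same direction in at least 2 comparisons with examples of others, and the 2 genes most correlated with each tested member. En2 and Hoxa2, and the genes listed as also fallen in Mut3, were named after their values were seen. Alternatives were DESeq2 1.42.0, library size scaling, no or a stricter count filter, fits of only the groups compared, limma 3.58.1 on log2(TPM + 1), no fold threshold, a replicate block and each replicate left out. Fits without CT2A, and of other comparisons without 005 replicate 3, were added after seeing the data. Some listed genes and details of the lines are not reported here, although the list counts include all listed genes.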

Additional observations from a re-analysis of the deposited data

Results flagged for a closer look

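The effect of tumor over naïve brain differed between lines for 4 members, by the edgeR test of the difference itself over all 15 libraries. The effect in 005 exceeded that in Mut3 by 2.90 on the log2 scale for Dlx1 (adjusted p = 0.00509), by 5.61 for Dlx2 (adjusted p = 0.00845), by 3.82 for Emx2 (adjusted p = 0.0232) and by 4.36 for Lhx2 (adjusted p = 0.00396). For Lhx2 the effect in GL261 also exceeded that in Mut3, by 3.51 (adjusted p = 0.0127). As both effects share the naïve libraries, each difference equals the direct contrast of the tumors. The value for Dlx2 rests on 1 count in Mut3 and depends on the prior count. Limma on log2(TPM + 1) called 0 members in either comparison. On that scale Dlx2, Emx2 and Lhx2 in 005 and Lhx2 in GL261 were too low for a log2 change of 1. The difference of Dlx1 between 005 and Mut3 was also below 1 there. Emx2 was not called without any 1 of the Mut3 libraries. The pan-neuronal markers also differed (8 of 9 higher in 005 than in Mut3), and their part was not tested. The groups have 3 libraries each, so single libraries were not screened for outliers.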

How the results depend on the processing

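The counts of called members are the main values that moved. Mut3 compared to naïve brain gave 6 to 7 members when a replicate was left out, losing Dlx6 without naïve replicate 1 or 2 or Mut3 replicate 1 or 3. It gave 5 with limma on log2(TPM + 1), without Dlx2 and Emx2, 5 of 6 tested in a fit of only the 2 groups, and 8 with no filter on low counts. Dlx2 and Emx2 had naïve means of 0.872 and 0.834 TPM, too low for a log2 change of 1 with limma. With a replicate left out, GL261 compared to naïve brain gave 0 to 5 members, 005 gave 0 to 3, GL261 compared to 005 gave 0, GL261 compared to Mut3 gave 1 to 4, and 005 compared to Mut3 gave 3 to 5. For 005 compared to naïve brain limma on log2(TPM + 1) called 3 members against 0, while 2295 of 17481 genes were called lower against 184. For GL261 compared to Mut3 the count of 1 became 3 with DESeq2, 2 in the fit without CT2A, and 0 with limma or in a fit of only the 2 groups, where 3 members were tested. For 005 compared to Mut3 limma called 0 against 4. Between GL261 and Mut3 every member, and between 005 and Mut3 all but Dlx1, had too low a TPM for a limma call. For Dlx1 the difference between 005 and Mut3 on that scale was also below a log2 change of 1. A filter of at least 10 counts in every sample left no member.

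Of 633 values of single members under these alternatives, 561 kept direction and side of the threshold, 30 lost the call, 22 gained it and 20 changed sign. In each sign change the member was called in neither setting. Otx1 became -0.0010 in GL261, -0.0712 in 005 and -0.0215 in Mut3 with limma. Between GL261 and Mut3 its value of -0.01 became 0.0135 with library size scaling, 0.0129 with only 2 groups, 0.0205 with limma and 0.10 without CT2A. With replicates left out, Otx1 ranged from 0.32 to 2.94 in GL261, from -0.22 to 2.30 in 005 and from 0.24 to 2.97 in Mut3, from -0.52 to 0.73 between GL261 and Mut3, and from -1.05 to 0.0809 between 005 and Mut3. Dlx2 in 005 ranged from -0.95 to 0.76 (0.16 with the replicate block), Dlx5 between GL261 and 005 from -2.08 to 0.19, and, between GL261 and Mut3, Dlx6 from -0.20 to 0.78 and Emx1 from -0.28 to 1.74. The cause of these changes was not tested. 
The replicate numbers did not pair the samples. Samples of 1 number are different mice, 1 of the 30 pairs with the same number had a correlation of deviations over 0.1 (range -0.331 to 0.262), and 2 of 15 samples were closest to their own number. With the number as a replicate block, 3 members were called in GL261, 0 in 005 and 7 in Mut3 compared to naïve brain, 0 between GL261 and 005, 1 between GL261 and Mut3 and 4 between 005 and Mut3. Naïve brain had the lowest depth, which limits what could be seen of Nkx2-1 and Otx1 there.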
